A study of Rattus norvegicus with 6 samples.

Results

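The genes described here are 10 heat shock genes of the cytosol and the mitochondrion, followed in the cortex of the rat kidney, its outer layer (renal cortex). They were chosen by name: Hspa1a, Hspa1b, Hspa8, Hsp90aa1, Hsp90ab1, Hspb1, Dnajb1, Hsph1, Hspd1 and Hspe1. On an Agilent array of 61657 probes, 29 probes matched 8 of these genes through their RefSeq accession. No probe matched Hspa1b or Dnajb1, and these 2 genes were not analysed here. All 29 probes were well above background on all 6 arrays, so each was among the 43473 probes tested, which covered 12269 named genes.

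The study compared male Sprague-Dawley rats given phenolphthalein (1000 mg/kg/day for 4 weeks), a pH indicator formerly sold as a laxative, with rats given corn oil, the vehicle, for 4 weeks. All were bought at 5 weeks of age and kept on a basal diet. Each group had 3 rats, with 1 single-colour array per rat, and the comparison asks which transcripts differ in the cortex after the dye.

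Heat shock proteins are chaperones that hold, fold or refold other proteins. In the cytosol, the Hsp70 proteins bind unfolded chains with help from Hsp40 proteins, which deliver the chains, and from Hsp110 proteins, which exchange the nucleotide, while Hsp90 proteins complete the folding of receptors and kinases. In mitochondria, Hsp60 and its lid Hsp10 form a chamber in which imported proteins fold. Heat, metals and toxic chemicals raise many of these transcripts through the transcription factor Hsf1, which binds repeats of GAA known as heat shock elements, and in the kidney inducible Hsp70 is a known marker of ischaemic and toxic stress.

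Such elements were looked for in the promoters of the members, taken from RefSeq on the GRCr8 build, because they are the letters through which Hsf1 would be read in these genes. The motif GAANNTTCNNGAA was searched on both strands in the 250 bases before each listed start. It was present in 4 of the 8 members with an entry and in 0.663% of 33469 promoters. The 8 entries were those of Hspa1a, Hspa8, Hsp90ab1, Hspb1, Dnajb1, Hsph1, Hspd1 and Hspe1. The 4 genes with a match were Hspa8 and Hsph1, whose upstream sequence is shown in full, and the pair Hspd1 and Hspe1, for which 29 bases around the element are shown. Capitals mark the bases of a match, and overlapping matches run together.
Hspa8, chr8:50080264-50080513, plus strand: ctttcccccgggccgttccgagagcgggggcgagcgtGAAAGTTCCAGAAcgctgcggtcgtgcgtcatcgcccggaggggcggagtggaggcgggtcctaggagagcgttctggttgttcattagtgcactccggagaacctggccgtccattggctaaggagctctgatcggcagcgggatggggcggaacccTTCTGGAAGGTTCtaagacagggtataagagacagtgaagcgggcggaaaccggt
Hsph1, chr12:10427118-10427367, plus strand: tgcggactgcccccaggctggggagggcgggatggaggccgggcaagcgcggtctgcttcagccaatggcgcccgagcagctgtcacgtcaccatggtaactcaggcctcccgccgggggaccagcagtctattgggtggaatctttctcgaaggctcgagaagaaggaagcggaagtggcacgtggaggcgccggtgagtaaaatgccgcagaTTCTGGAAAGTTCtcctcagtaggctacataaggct
Hspe1, chr9:64084254-64084282, plus strand: gcgctcggTTCTAGAACCTTCCGGAAggc
Hspd1, chr9:64084259-64084287, minus strand: gcggggccTTCCGGAAGGTTCTAGAAccg

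Hspd1 and Hspe1 are transcribed away from each other, and the same run of bases on chromosome 9 carries the matches of both, read from opposite strands. It starts 65 bases before the listed start of Hspe1 and 242 bases before that of Hspd1. In Hspa8 the matches start 213 and 55 bases before the start, and in Hsph1 the match starts 36 bases before it. A match describes these letters and does not show binding. A missing match does not show that a gene lacks heat shock elements, since only this motif was searched and only within these 250 bases.

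Levels below are log2 intensities relative to the 75th percentile of each array, so 0 is that percentile, and differences are phenolphthalein minus vehicle on the log2 scale. Probes differ in how strongly they bind, so levels are compared between rats for a probe and never between probes. The arrays lay on 3 slides: all vehicle arrays shared slide 1, phenolphthalein replicates 2 and 3 shared slide 2, and phenolphthalein replicate 1 lay on slide 3. The vehicle group and its slide therefore cannot be told apart. The proximal tubule markers Slc34a1 and Lrp2 were well above background on every array, as was Aqp2 of the collecting duct. Phenolphthalein replicate 2 stood apart in liver markers, with a median of 1.77 above the vehicle mean over 30 probes, against -0.26 and -0.020 in the other phenolphthalein arrays and 0.90, -0.15 and -0.58 in the vehicle arrays.

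No heat shock probe passed the test in either direction. After adjustment over all probes, 0 of 29 were higher and 0 lower (limma, adjusted p between 0.524 and 0.975), where the background over all tested probes was also 0% higher and 0% lower (smallest adjusted p = 0.221). At an unadjusted p under 0.05, 0 member probes were higher and 3 lower, or 10.3%, beside 3.91% higher and 4.91% lower of all tested probes. These 3 probes belonged to Hsp90ab1, Hsp90aa1 and Hsph1. The lower count was 0 without vehicle replicate 1, vehicle replicate 2 or phenolphthalein replicate 2, and 1 without phenolphthalein replicate 1. It was 5 without phenolphthalein replicate 3 and 7 without vehicle replicate 3. The higher count was 1 without phenolphthalein replicate 2, where the lower count was 0. Values lay below those of the vehicle group for 26 of the 29 probes, beside 53.5% of all tested probes. Probes of 1 gene read the same RNA, so these counts are not of independent members.

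The differences were small. Their median was -0.091, beside -0.014 over all tested probes, and they ran from -0.42 for Hsph1 to 0.17 for a probe of Hsp90ab1. Over the 29 probes, the 95% intervals reached no further than -0.80 and 0.39, which are 0.574-fold and 1.31-fold. A doubled signal of any measured member would thus lie outside its interval. These intervals are per probe and allow for no shift between the vehicle slide and the others, so they do not bound the effect of the dye alone. The median SD between rats of a group was 0.15 for the member probes and 0.15 for all tested probes.

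**Figure D1:**
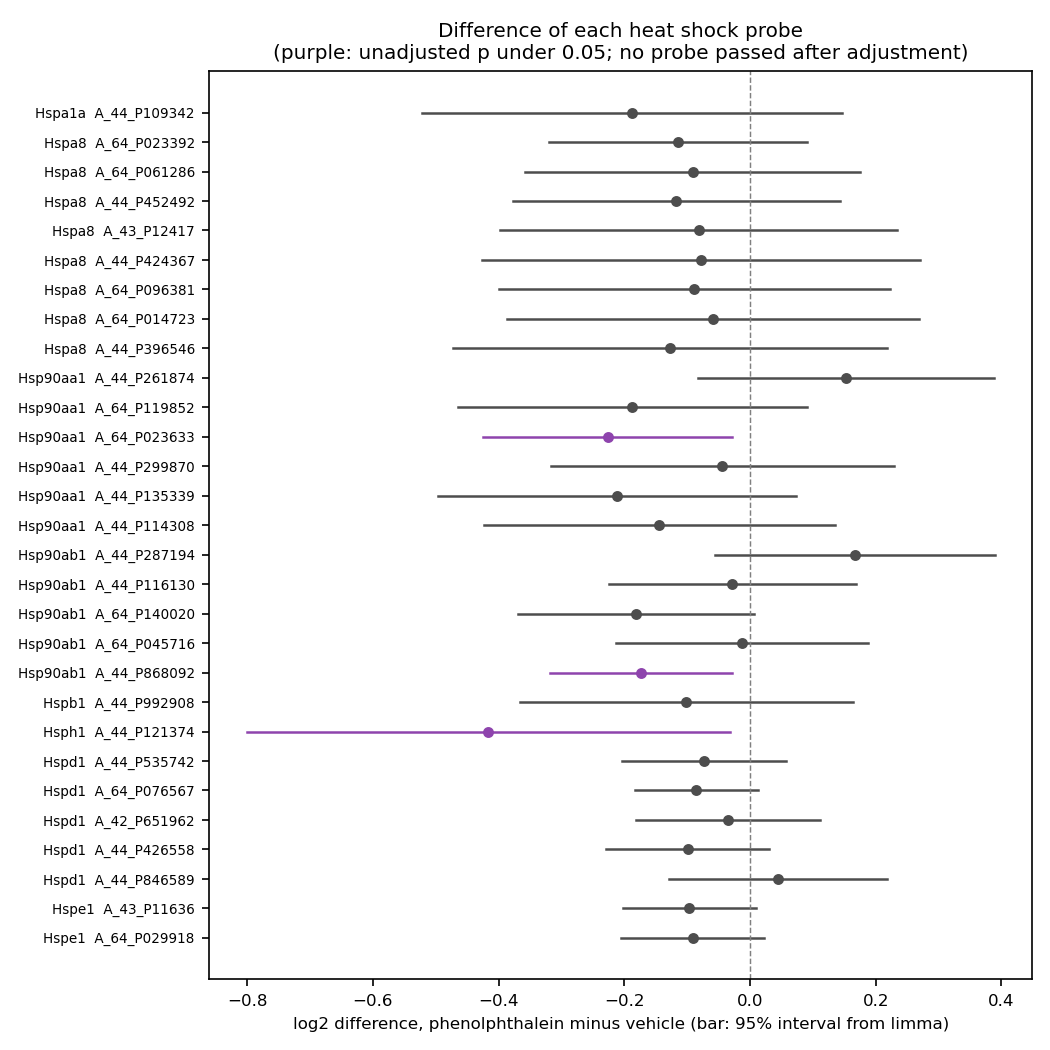
Log2 difference, phenolphthalein minus vehicle, of each of the 29 heat shock probes (points) with its 95% interval from limma (bars), ordered by gene and, within a gene, from the brightest probe down. Most points lie slightly left of 0, the interval of Hsph1 is the widest, and the brightest probes of Hsp90aa1 and Hsp90ab1 lie right of 0.

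Hspa1a encodes the stress-inducible cytosolic Hsp70, which is scarce in unstressed cells. Its probe read -2.35, -2.47 and -2.11 in the phenolphthalein rats, against -2.34, -2.00 and -2.03 in the vehicle rats. The groups overlapped, since phenolphthalein replicate 3 lay above vehicle replicate 1. The difference was -0.19 (SE 0.14, 95% interval -0.52 to 0.15, limma adjusted p = 0.729). Leaving out 1 array gave -0.30 without vehicle replicate 1 to -0.11 without phenolphthalein replicate 2. Hspa1a and Hspa1b are near-identical copies, so signal from both in this probe cannot be told apart.

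Hspa8 encodes the constitutive Hsp70, also called Hsc70, which folds new proteins and uncoats clathrin vesicles. Its brightest probe read 7.86, 7.72 and 8.04 in the phenolphthalein rats, against 8.07, 8.005 and 7.89 in the vehicle rats. All 8 probes were lower in phenolphthalein replicate 2 than in every other array, and all 8 were highest among the phenolphthalein arrays in replicate 3. Taken as the median over the 8 probes relative to their vehicle means, Hspa8 stood at -0.011, -0.37 and 0.096 in the phenolphthalein rats, against 0.12, 0.0072 and -0.12 in the vehicle rats. One phenolphthalein rat thus lay below the vehicle range and the other two lay inside it. The differences ran from -0.13 to -0.058 over the probes (limma adjusted p between 0.728 and 0.923). Phenolphthalein replicate 2 also carried the most liver transcripts, and without it the median difference over the Hspa8 probes was 0.043, against -0.090 with all arrays and -0.19 without phenolphthalein replicate 3. The part of the liver transcripts in this value was not tested.

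Hsph1 encodes Hsp110, the nucleotide exchange factor of Hsp70, and had the lowest difference of the members. Its probe read -1.01, -0.80 and -0.38 in the phenolphthalein rats, against -0.25, -0.23 and -0.44 in the vehicle rats. Phenolphthalein replicates 1 and 2 lay below all vehicle rats, while replicate 3 lay within their range. The difference was -0.42 (SE 0.16, 95% interval -0.80 to -0.032, limma unadjusted p = 0.0374, adjusted p = 0.544). The value rests on 1 probe, and leaving out 1 array gave -0.59 to -0.28.

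**Figure D2:**
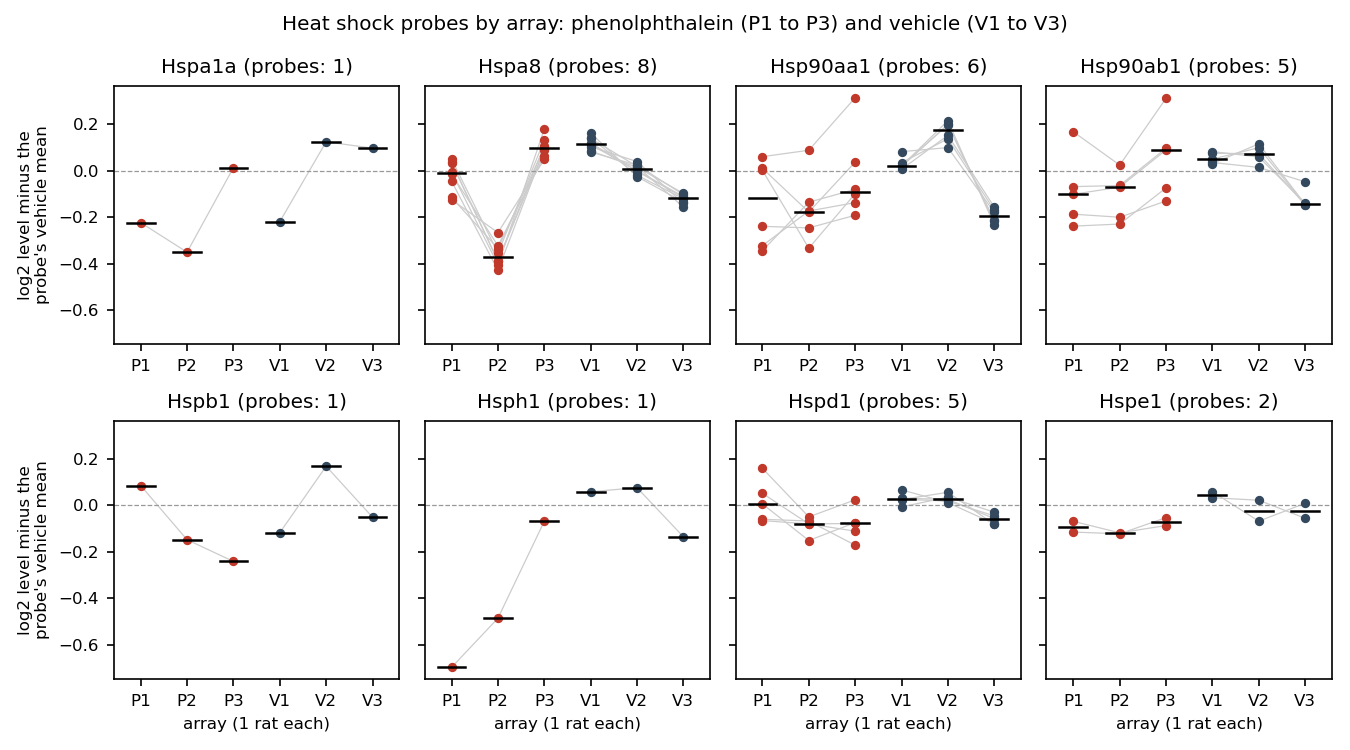
Level of every heat shock probe in each array, as log2 minus that probe's vehicle mean (dashed line), with 1 panel per gene. Points are probes, red for phenolphthalein (P1 to P3) and dark for vehicle (V1 to V3), grey lines join 1 probe within a group and black bars are medians over the probes. The 8 Hspa8 probes move together and are lowest in P2, the Hsp90 probes are low in V3, and the panels of Hspd1 and Hspe1 span the narrowest range.

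Hsp90aa1, the inducible cytosolic Hsp90, was measured by 6 probes that did not run one way: 5 had lower values and 1 a higher one. The probe A_64_P023633 read 2.94, 2.94 and 2.99 in the phenolphthalein rats, against 3.19, 3.34 and 3.03 in the vehicle rats. These groups did not overlap, and the difference was -0.23 (SE 0.084, limma unadjusted p = 0.0307, adjusted p = 0.530). The brightest probe, A_44_P261874, read 5.62, 5.65 and 5.88 in the phenolphthalein rats, against 5.64, 5.66 and 5.38 in the vehicle rats. Its groups overlapped, with a difference of 0.15 (SE 0.10, limma adjusted p = 0.693). Over the 6 probes the median difference was -0.17, and leaving out 1 array gave -0.26 without vehicle replicate 3 to -0.082 without vehicle replicate 2.

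Hsp90ab1, the constitutive Hsp90, showed the same split over its 5 probes, with 4 lower values and 1 higher. The probe A_44_P868092 read 1.07, 1.06 and 1.13 in the phenolphthalein rats, against 1.30, 1.27 and 1.21 in the vehicle rats. All phenolphthalein rats lay below all vehicle rats, with a difference of -0.17 (SE 0.061, limma unadjusted p = 0.0256, adjusted p = 0.524). Again the brightest probe, A_44_P287194, went the other way: it read 5.38, 5.23 and 5.52 in the phenolphthalein rats, against 5.26, 5.31 and 5.06 in the vehicle rats. The difference was 0.17 (SE 0.094, limma adjusted p = 0.651), and the groups overlapped. The median over the 5 probes was -0.028, and leaving out 1 array gave -0.10 to 0.0088.

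In each Hsp90 gene, the gap between the brightest probe and the others differed between the groups by more than the SD of that gap within a group. The brightest Hsp90aa1 probe minus the mean of the 5 others, with the vehicle mean set to 0, stood at 0.24, 0.30 and 0.41 in the phenolphthalein rats, against 0.062, -0.081 and 0.019 in the vehicle rats. For Hsp90ab1, with 4 other probes, it stood at 0.32, 0.16 and 0.32 in the phenolphthalein rats, against -0.0059, 0.033 and -0.027 in the vehicle rats. In both genes the phenolphthalein rats lay above all vehicle rats. The same quantity overlapped between the groups for Hspa8, Hspd1 and Hspe1. The split was noticed in these values and has no test, the probes' positions in the transcripts were not used here, and the vehicle slide moves with the group. Where only the brightest probe stands for a gene, Hsp90aa1 and Hsp90ab1 take values of 0.15 and 0.17 in place of medians of -0.17 and -0.028.

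**Figure D3:**
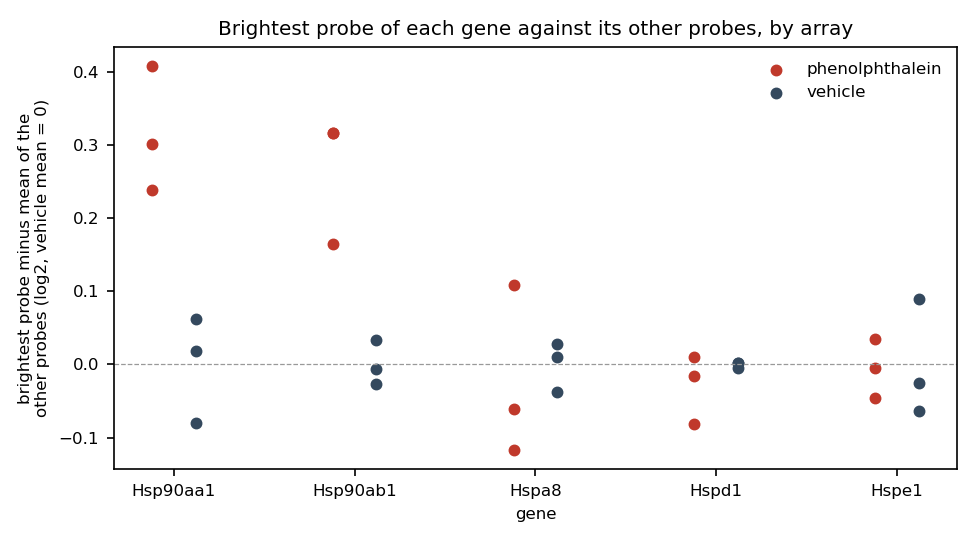
Brightest probe of each gene minus the mean of its other probes, in log2 with the vehicle mean set to 0, for each phenolphthalein array (red, left) and vehicle array (dark, right). For Hsp90aa1 and Hsp90ab1 all phenolphthalein points lie above all vehicle points, and in Hsp90ab1 the points of replicates 1 and 3 coincide at 0.32, while for Hspa8, Hspd1 and Hspe1 the groups overlap.

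Hspb1 encodes the small heat shock protein Hsp27 (Hsp25 in rodents), which keeps unfolded proteins soluble and steadies actin filaments. Its single probe read 1.71, 1.48 and 1.38 in the phenolphthalein rats, against 1.51, 1.79 and 1.57 in the vehicle rats. The groups overlapped over most of their range, with a difference of -0.10 (SE 0.11, 95% interval -0.37 to 0.16, limma adjusted p = 0.821). Leaving out 1 array gave -0.19 without phenolphthalein replicate 1 to -0.017 without vehicle replicate 2.

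The mitochondrial pair had the tightest values. Hspd1 encodes Hsp60, and its brightest probe read 6.58, 6.42 and 6.498 in the phenolphthalein rats, against 6.60, 6.60 and 6.51 in the vehicle rats. Its 5 probes differed by -0.099 to 0.045, 4 of them with lower values, and their intervals reached -0.23 and 0.22 (limma adjusted p between 0.616 and 0.892). The second brightest, A_64_P076567, read 6.35, 6.33 and 6.30 in the phenolphthalein rats, against 6.40, 6.45 and 6.38 in the vehicle rats. Here the groups did not overlap, at a difference of -0.085 (SE 0.042), or -5.74%. The median over the 5 probes was -0.073, and leaving out 1 array gave -0.0998 without vehicle replicate 3 to -0.034 without phenolphthalein replicate 2.

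Hspe1 encodes Hsp10, the lid of the Hsp60 chamber. Its brighter probe read 6.95, 6.94 and 7.01 in the phenolphthalein rats, against 7.09, 7.08 and 7.005 in the vehicle rats. The differences of its 2 probes were -0.096 and -0.091 (limma adjusted p = 0.602 and 0.639), close to those of Hspd1, and both intervals ended below 0.023 on the upper side. Over the 29 probes, the groups did not overlap for 5, all lower and 17.2% of the probes, beside 8.98% lower and 6.64% higher of all tested probes. They were 2 probes of Hspd1 and 1 each of Hspe1, Hsp90aa1 and Hsp90ab1. The Hspe1 one, A_64_P029918, owes this to values that both round to 6.38.

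The heat shock genes varied partly alike among the rats. Of the 29 probes, 16 were lowest of all arrays in phenolphthalein replicate 2 and 6 in vehicle replicate 3, while 13 were highest in vehicle replicate 1 and 10 in vehicle replicate 2. Within the vehicle group, replicate 3 was lowest for all 6 Hsp90aa1, all 5 Hsp90ab1, all 8 Hspa8 and all 5 Hspd1 probes. It was also lowest for the Hsph1 probe and 1 of the 2 Hspe1 probes, but not for Hspa1a or Hspb1. Over the members, the array medians relative to the vehicle means were -0.060, -0.18 and 0.012 in the phenolphthalein rats, against 0.049, 0.039 and -0.12 in the vehicle rats. Vehicle replicate 3 thus lay below phenolphthalein replicates 1 and 3.

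Other chaperones were read from lists based on general knowledge of the families. Over 7 lists outside the endoplasmic reticulum, 75 genes and 133 probes were tested, 0 passed in either direction, and the median difference was -0.021. At an unadjusted p under 0.05, 4 of these probes were higher and 3 lower, beside 3.91% higher and 4.91% lower of all tested probes. All 7 were in the list of Hsp70 and Hsp90 cochaperones. Leaving out 1 array gave 1 to 3 higher cochaperone probes, the fewest without vehicle replicate 3, and 0 to 8 lower ones, the most without phenolphthalein replicate 3. The other Hsp40 genes had a median of 0.025 over 23 probes, the chaperonin TRiC and prefoldin -0.030 over 23, and the other mitochondrial chaperones and proteases 0.015 over 22. Other cytosolic Hsp70 and Hsp110 genes stood at -0.023 over 11 probes and other small heat shock proteins at -0.017 over 7. Transcripts of the heat shock transcription factors and their regulators had a median of -0.011 over 7 probes, with Hsf1 at -0.058 (SE 0.090). With 1 array left out, the medians of these 6 lists lay between -0.16, for the small heat shock proteins without vehicle replicate 3, and 0.051, for the Hsp70 and Hsp110 genes without phenolphthalein replicate 3. Their sign changed in at least 1 such setting for 5 of the 6 lists, all but TRiC and prefoldin.

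Among the cochaperones, whose list had a median of -0.037 over 40 probes and 22 genes, the lowest p belonged to Ppid, a cyclophilin that binds Hsp90. Its probe A_64_P124552 read 3.75, 3.76 and 3.77 in the phenolphthalein rats, against 3.59, 3.63 and 3.49 in the vehicle rats. The groups did not overlap, the difference was 0.19 (SE 0.056, limma adjusted p = 0.475), and all 4 probes of the gene had higher values. On the lower side it was Bag6, which chaperones membrane proteins before insertion. Bag6 read 2.50, 2.47 and 2.52 in the phenolphthalein rats, against 2.63, 2.67 and 2.62 in the vehicle rats, a difference of -0.15 (SE 0.052, limma adjusted p = 0.524). Neither passed after adjustment.

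The chaperones of the endoplasmic reticulum, most of which answer to the unfolded protein response, lay lower than the cytosolic lists. The median over 22 probes was -0.18, with lower values for 19, and 0 passed after adjustment. At an unadjusted p under 0.05 there were 7 lower and 0 higher, beside 4.91% lower and 3.91% higher of all tested probes. Without vehicle replicate 1 the median was -0.078, with 6 lower. Sdf2l1 had the smallest p (-0.33, SE 0.089, limma adjusted p = 0.448). Its probe read 1.24, 1.13 and 1.11 in the phenolphthalein rats, against 1.64, 1.48 and 1.35 in the vehicle rats, with no overlap.

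**Figure D4:**
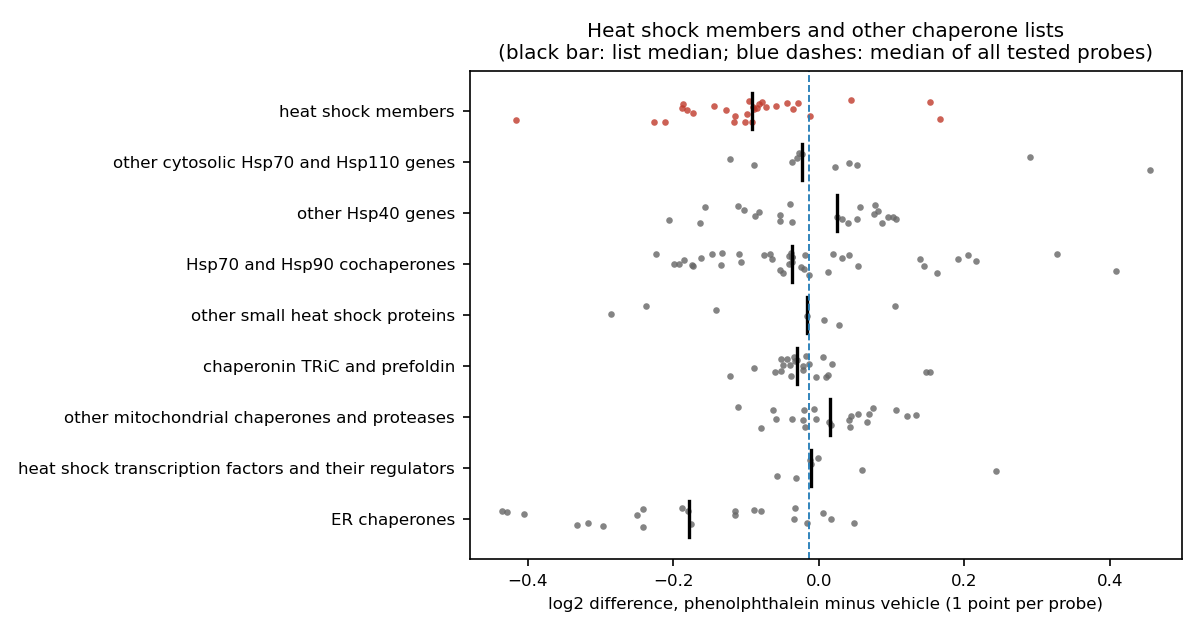
Log2 difference, phenolphthalein minus vehicle, for every tested probe (points, jittered vertically) of the heat shock members (red) and of 8 other chaperone lists (grey). Black bars are list medians and the blue dashed line is the median of all tested probes, -0.014. Most medians lie close to that line, the members' is -0.091 and that of the endoplasmic reticulum chaperones is -0.18.

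Markers of other cell types were read on the same arrays, and their part in the heat shock values was not tested. After adjustment 0 of these marker probes passed in either direction (limma, smallest adjusted p = 0.398). Leukocyte markers had lower values for 24 of 25 probes of 14 genes, with a median of -0.47. At an unadjusted p under 0.05, 18 were lower and 0 higher, beside 4.91% lower and 3.91% higher of all tested probes. Summed over the genes on the linear scale, leukocyte markers ranged from 133 to 140 times the array's 75th percentile in the phenolphthalein rats, against 162 to 206 in the vehicle rats.

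The proximal tubule makes up most of the cortex, and its markers had a median of -0.086 over 20 probes, beside -0.091 for the heat shock members. Values were lower for 14 of the 20. At an unadjusted p under 0.05, 2 were lower and 0 higher, beside 4.91% lower and 3.91% higher of all tested probes. The sums of the proximal tubule markers ranged from 2075 to 2173 in the phenolphthalein rats, against 2153 to 2188 in the vehicle rats. Without phenolphthalein replicate 1 their median was -0.052. Erythroid markers had lower values for 6 of 6 probes, with a median of -0.16 that was -0.26 without vehicle replicate 1 and -0.059 without vehicle replicate 3. Their sums ranged from 500.2 to 533 in the phenolphthalein rats, against 513 to 643 in the vehicle rats, so these groups overlapped.

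Of the markers of deeper kidney layers, the smallest p of each list on the lower side belonged to Aqp2 and Slc6a12. Aqp2, the water channel of the collecting duct, had a difference of -0.58 (SE 0.20), and -0.49 at its other probe. Slc6a12, a betaine transporter of the medulla, had one of -0.46 (SE 0.10), and -0.42 at its other probe. On the higher side it belonged to Krt18 (0.19, SE 0.095) and Slc6a6 (0.26, SE 0.15). None passed after adjustment (limma adjusted p of 0.510, 0.412, 0.616 and 0.653 in this order). Collecting duct probes were lower for 8 and higher for 8, osmolyte probes lower for 8 and higher for 7. The collecting duct list had a median of 0.0038 over 16 probes, which ran from -0.060 to 0.091 when 1 array was left out. At an unadjusted p under 0.05, 2 of its probes were lower, both of Aqp2, and 0 higher. Of all tested probes, 4.91% were lower and 3.91% higher at that threshold. With 1 array left out, the list had 0 to 4 lower and 0 to 3 higher probes. The linear sums of the collecting duct list, in which Aqp2 weighs most, were 103, 120 and 138 in the phenolphthalein rats. They were 156, 132 and 184 in the vehicle rats, so the groups overlapped. The osmolyte genes had a median of -0.042 over 15 probes, at -0.070 to 0.020 with 1 array left out. In bulk tissue, fewer cells of a type and less RNA per cell cannot be told apart.

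The immediate early genes, which answer to handling and acute stress, gave 3 higher and 0 lower probes of 17 at an unadjusted p under 0.05 and a median of -0.14. Of all tested probes, 3.91% were higher and 4.91% lower at that threshold. Without vehicle replicate 2 or 3 the higher count was 1, and without phenolphthalein replicate 3 the median was -0.017. The lower count was 3, equal to the higher count, without vehicle replicate 1, and 1 without phenolphthalein replicate 1. Junb, a transcription factor subunit, had the smallest p, with values of 3.28 ± 0.14 in the phenolphthalein rats and 2.96 ± 0.15 in the vehicle rats (SD, n = 3 each). They differed by 0.32 (SE 0.099, limma adjusted p = 0.487).

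By root mean square difference over the 6 arrays, after centring each probe on its own mean, the named genes closest to the Hsph1 probe were Rbm41 (0.034), Hoxd4 (0.064), Gdf2 (0.076), RT1-Da (0.082) and B3galt2 (0.083). Those closest to the brightest Hspd1 probe were Ube2d3 (0.013), Nsmce4a (0.016), Def8 (0.016), Adhfe1 (0.016) and Parva (0.017). These distances are in log2 units over 6 arrays, and the ranking carries no test.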

How the data were processed

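Values came from scanner files in which a spot intensity had been background-subtracted and detrended within each array by Agilent Feature Extraction 10.7.1.1, per the file headers. Arrays had not been normalized to each other, and version 10.7 of the program is given in the submitters' processing notes. A value table, also deposited, holds a linear ratio. Each of its columns equalled the intensity over the 75th percentile of an array of the same group but another replicate (SD of the log2 difference at most 0.0072), so the scanner files' labels were used and the table served as an alternative.

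Flagged outlier spots were set to missing, log2 of the intensity was taken relative to each array's 75th percentile over non-control probes, and probes well above background on at least 3 arrays were tested with limma 3.58.1 in R 4.3.3 (intensity trend, two-sided, Benjamini-Hochberg adjustment over all probes, threshold 0.05). Standard errors and 95% intervals are limma's and are not adjusted for the number of probes. Between 64.8% and 72.1% of probes per array were well above background, none was saturated, and 3 arrays per group limit the precision. Of the probes, 27460 matched 1 gene symbol of the GRCr8 table and 34197 none. The fit was also run on simulated data with known changes. These were drawn independently for each probe and without a slide effect, so that run does not bear on either. The members and lists were chosen with earlier results of these data known. All members and probes are named, and from other lists the probe with the smallest p in each direction where a result turns on it; Slc34a1 and Lrp2 were added for the tissue check. Likeness was taken for the member probe with the largest range and the brightest Hspd1 probe. Same-numbered rats did not deviate together (correlations of -0.00852, -0.00914 and 0.0431). The files hold no mean spot signal, so normexp (offset 50) used the median signal. Alternatives also covered normalization, filters, slide, replicate number, variance trend and leaving out arrays.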

Additional observations from a re-analysis of the deposited data

How the results depend on the processing

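Under 17 alternatives, 0 heat shock probes were called higher and 0 lower, the replicate block (0 and 0) included, and 0 probes of the other chaperone lists were called. Over all tested probes, at most 1 was called higher and at most 1 lower under any alternative. A count of 0 among the members was therefore likely in any case. Slide as a random block cannot separate the vehicle slide from the vehicle group. The smallest adjusted p among the members lay between 0.492 and 0.751. The unadjusted count of 3 lower probes was 1 with the replicate block, 1 without the intensity trend, 1 with 1 probe per gene and 2 with median centring. With 1 array left out it ran from 0 without either vehicle replicate 1, vehicle replicate 2 or phenolphthalein replicate 2 to 5 without phenolphthalein replicate 3 and 7 without vehicle replicate 3. Without phenolphthalein replicate 2, 1 member probe was higher at this threshold and 0 lower. The median over the member probes, -0.091, stayed below 0, at -0.099 to -0.068 under the 11 alternatives that kept all arrays, and at -0.17 to -0.034 when 1 array was left out. Of 136 values of single genes, 130 kept their sign and 6 did not, all of genes not called: Hspa8 without phenolphthalein replicate 2, Hsp90aa1 with 1 probe per gene, and Hsp90ab1 with 1 probe per gene and without phenolphthalein replicate 1, vehicle replicate 1 or vehicle replicate 2. With 1 probe per gene, only 8 member probes remain. The numbers did not pair the rats, and the block changed no call. Precision is set by 3 arrays per group.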

Other observations

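Cryab, the small heat shock protein alpha B-crystallin, was chosen after its values were seen. It varied more between rats than any measured heat shock member and did so alike in both groups. Its probe read 5.50, 4.40 and 4.25 in the phenolphthalein rats, against 5.52, 4.54 and 4.08 in the vehicle rats. Replicate 1 of each group stood about 1 log2 unit above the others, and the group difference was 0.0066 (SE 0.44, 95% interval -1.04 to 1.05, limma adjusted p = 0.998). The interval is thus too wide to say whether this gene differs between the groups.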
